A study of Mus musculus with 6 samples.

Results

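Plasma cells are the antibody-secreting end stage of B cells, and 10 genes that mark them or serve antibody secretion were followed here in RNA sequencing libraries of mouse spleen cells. They were taken by gene symbol from tables of 24346 genes, and all 10 were found. All 10 also passed the expression filter, which asked for 1 FPKM or more in 3 or more of the 6 libraries and left 11518 genes. There were 3 libraries from cells of the IL-33 group, IL-33 being an alarmin cytokine of the IL-1 family, and 3 from the PBS group, its vehicle. In both, splenic cells positive for CD11c, the integrin chain that marks dendritic cells, were collected by magnetic sorting on an autoMACS instrument. The labels do not give strain, age, sex, dose, time or whether treatment took place in the animal or in culture. Nor do they state separate animals for the 3 libraries of a group, so p-values reflect library-to-library spread that may be technical.

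A plasma cell turns most of its protein synthesis to immunoglobulin, which is folded, glycosylated and assembled in the endoplasmic reticulum (ER). The transcription factor XBP1, made active when the ER sensor IRE1 splices its mRNA, widens the secretory pathway, and misfolded chains leave through ER-associated degradation (ERAD). Xbp1 and several of its targets are also used by other secretory cells, by plasmacytoid dendritic cells and by conventional dendritic cells. The joining chain and syndecan-1 are used as marks of antibody-secreting cells. Whether other cells among those sorted also carried their transcripts was not tested. Symbols of the immunoglobulin constant region genes were not matched in the tables, so the antibody chains themselves were not analysed here.

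The sorted cells carried transcripts of dendritic cells and of macrophages. Itgax, which encodes CD11c, was at 283 ± 15.1 FPKM in IL-33 libraries and 241 ± 11.8 FPKM in PBS libraries, and Zbtb46, a transcription factor of conventional dendritic cells, at 23.5 ± 1.94 and 36.9 ± 0.745 FPKM (mean ± SD, n = 3 per group). The macrophage gene C1qa was at 845 ± 133 FPKM in IL-33 libraries and 581 ± 149 FPKM in PBS libraries, above Itgax in both groups (these 3 genes were chosen after their values were seen). Of 15 conventional dendritic cell markers 7 were higher with IL-33 and 5 lower, and with equal totals 6 were higher and 8 lower. Over all tested genes 28.0% were higher and 25.5% lower, and 11.1% and 50.7% with equal totals. FPKM, fragments scaled to transcript length and to library size, hold no read counts, and how the libraries were scaled to each other is not given. The steps between low values gave depths of 0.946 to 1.07 in IL-33 libraries and 1.00 to 1.22 in PBS libraries relative to PBS replicate 1. These depths are rough, because only 17.3% to 19.9% of the low values compared lay at the step ratio of a library. They also contain any scaling of libraries by the submitters. The sum of FPKM was 778391 to 841884 in IL-33 libraries and 614522 to 641412 in PBS libraries. PBS replicate 1 stood apart from the other PBS libraries in B cell transcript: the summed FPKM of 18 B cell markers was 1321 there, against 776 and 597 in PBS replicates 2 and 3. Its summed FPKM of 14 macrophage markers was the lowest of the PBS libraries, at 2842 against 4181 and 4869.

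Of the 10 genes, 9 were higher with IL-33 and none was lower, while Pou2af1 did not pass. The median log2 change of the 10 was 1.06, against 0.01 over all tested genes. The 10 genes were chosen with earlier results of these data known, so comparisons with all tested genes are descriptions. Values were compared as log2(FPKM + 1) with limma, and a gene was called at a Benjamini-Hochberg adjusted p below 0.05 over all tested genes. Under this rule 28.0% of all tested genes were higher and 25.5% were lower with IL-33. For the same 9 genes the lowest IL-33 library stood above the highest PBS library, a pattern shown by 32.7% of all tested genes. A log2 change of at least 1 with a call was reached by 5 of the 10 genes (Fkbp11, Jchain, Mzb1, Derl3 and Sdc1), against 3.11% of all tested genes. Of these 5, Fkbp11 and Sdc1 were under 1 FPKM in at least 1 PBS library, while the other 8 of the 10 genes reached 1 FPKM in all PBS libraries. In a bulk sample, more cells of a type and more RNA per cell cannot be told apart. The change scale understates the fold of genes near or below 1 FPKM.

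**Figure D1:**
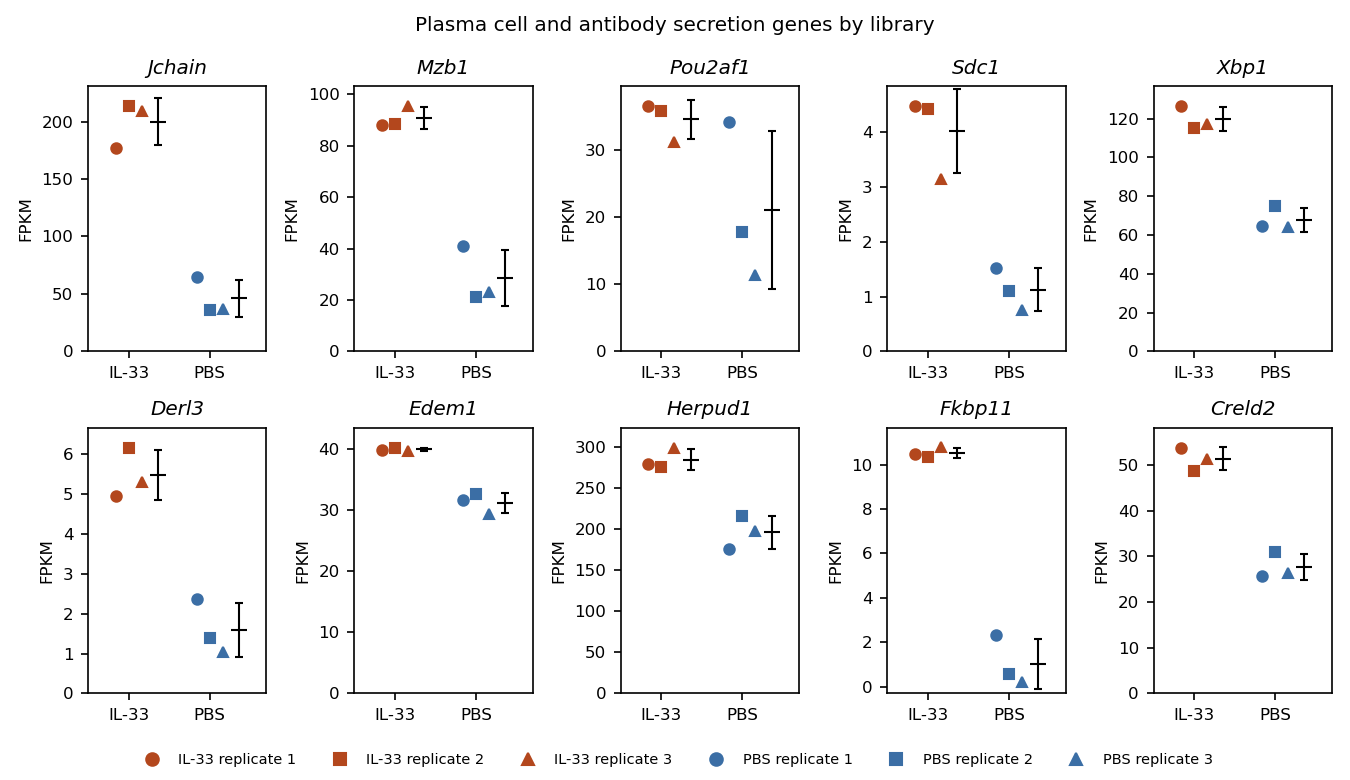
FPKM of the 10 genes in each library, with IL-33 libraries at the left and PBS libraries at the right of each panel; symbols mark the replicates, and the black bars beside them give mean ± SD (n = 3 per group). Every gene except Pou2af1 has all IL-33 points above all PBS points, and PBS replicate 1 is the highest PBS point for Jchain, Mzb1, Pou2af1, Sdc1, Derl3 and Fkbp11.

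Jchain encodes the joining chain that links IgA and IgM into polymers, and lies at chr5:88519809-88527891, minus strand, in GRCm38 (mm10). Its level was 177, 214 and 209 FPKM in IL-33 libraries (replicates 1, 2 and 3 here and throughout), against 65.0, 36.4 and 37.2 FPKM in PBS libraries. All 3 IL-33 libraries were therefore above the highest PBS library, PBS replicate 1. The mean was 4.32-fold higher with IL-33, with a log2 change of 2.14 (SE 0.21, 95% interval 1.63 to 2.64, limma adjusted p = 0.000506), which ranked 78 of 11518 tested genes.

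Mzb1 encodes an ER protein of B lineage cells and plasmacytoid dendritic cells that helps immunoglobulin assembly. It was at 88.1, 88.6 and 95.6 FPKM in IL-33 libraries, against 41.1, 21.3 and 23.2 FPKM in PBS libraries. The IL-33 libraries lay close together, and PBS replicate 1 again held the most among the PBS libraries. The log2 change was 1.69 (SE 0.22, limma adjusted p = 0.00117). Mzb1 shares exon sequence with Spata24 on the same strand in the GENCODE M21 annotation, so reads there could belong to either gene. Spata24 itself was at 2.55, 5.85 and 4.35 FPKM in IL-33 libraries and 2.06, 4.54 and 4.72 FPKM in PBS libraries, far below Mzb1 in all 6. No other of the 10 genes, all protein-coding, had exons that overlapped those of another gene. In GRCm38 Xbp1 lies at chr11:5520659-5525893, Sdc1 at chr12:8771323-8793715, Pou2af1 at chr9:51213708-51240080, Derl3 at chr10:75893413-75895941, Creld2 at chr15:88819646-88826683, Edem1 at chr6:108828641-108859356 and Herpud1 at chr8:94386438-94395377, all on the plus strand, and Fkbp11 lies at chr15:98724366-98728198 on the minus strand.

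Sdc1 encodes syndecan-1 (CD138), the cell surface proteoglycan by which plasma cells are sorted. Its level was low, at 4.48, 4.43 and 3.14 FPKM in IL-33 libraries, against 1.53, 1.10 and 0.748 FPKM in PBS libraries. The log2 change was 1.24 (SE 0.17, limma adjusted p = 0.0014), and the lowest IL-33 library was still above the highest PBS library. Sdc1 was under 1 FPKM in PBS replicate 3 and reached 1 FPKM in all 3 IL-33 libraries, so it would have passed the filter through the IL-33 group alone.

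Fkbp11 encodes an ER-resident peptidyl-prolyl isomerase of secretory cells, and had the largest change of the 10 genes. It was at 10.5, 10.4 and 10.8 FPKM in IL-33 libraries, against 2.32, 0.593 and 0.212 FPKM in PBS libraries. The IL-33 values agreed within 1.04-fold between highest and lowest, whereas the PBS values spanned 10.9-fold. The log2 change was 2.63 (SE 0.33, 95% interval 1.86 to 3.40, limma adjusted p = 0.00103), rank 43 of the tested genes. Only PBS replicate 1 reached 1 FPKM among the PBS libraries, so Fkbp11 passed the expression filter through the group in which it was high; it was also called without a filter.

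Pou2af1 encodes OBF-1 (BOB.1), the B cell coactivator of octamer-binding transcription factors, and is expressed in B cells as well as in plasma cells. It was at 36.6, 35.9 and 31.3 FPKM in IL-33 libraries, against 34.2, 17.8 and 11.4 FPKM in PBS libraries. The groups overlapped, because PBS replicate 1 was above IL-33 replicate 3. The log2 change of 0.82 (SE 0.33, 95% interval 0.04 to 1.59) did not pass (limma adjusted p = 0.0709). It passed without PBS replicate 1 (log2 change 1.22, limma adjusted p = 0.00372), and the estimate was 0.47 without PBS replicate 3. It also passed with libraries weighted by their spread (log2 change 0.91, limma adjusted p = 0.0168), a fit in which 30.3% of all tested genes were higher.

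Xbp1 was at 127, 115 and 117 FPKM in IL-33 libraries, against 64.5, 74.8 and 64.1 FPKM in PBS libraries. The groups were far apart relative to their spread, with a log2 change of 0.81 (SE 0.08, limma adjusted p = 0.000506). The FPKM of the gene adds its spliced and unspliced mRNA, so the active form was not measured. Creld2, which encodes an ER-stress-inducible protein of the ER, was at 53.7, 48.7 and 51.4 FPKM in IL-33 libraries, against 25.7, 30.9 and 26.4 FPKM in PBS libraries (log2 change 0.87, SE 0.09, limma adjusted p = 0.000489). For both genes PBS replicate 2, not PBS replicate 1, was the highest PBS library. Both were still called under the other scalings, with smaller changes. With equal totals, quantile normalization and cyclic loess, Xbp1 stood at 0.48, 0.55 and 0.52, and Creld2 at 0.54, 0.73 and 0.73.

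Of the 3 ERAD genes, Derl3 changed most. Derl3 encodes a derlin, an ER membrane protein that helps to carry misfolded proteins to the cytosol and whose expression is more restricted than that of Derl1 and Derl2. It was at 4.96, 6.16 and 5.30 FPKM in IL-33 libraries, against 2.36, 1.39 and 1.04 FPKM in PBS libraries (log2 change 1.35, SE 0.18, limma adjusted p = 0.00134). Herpud1, a stress-inducible scaffold of the ubiquitin ligase complex of ERAD, was the most abundant of the 10 genes in every library. It was at 279, 275 and 299 FPKM in IL-33 libraries, against 176, 215 and 197 FPKM in PBS libraries (log2 change 0.54, SE 0.09, limma adjusted p = 0.00248). Edem1, a lectin-like protein that picks out misfolded glycoproteins, had the smallest change: 39.8, 40.2 and 39.7 FPKM in IL-33 libraries against 31.6, 32.6 and 29.3 FPKM in PBS libraries (log2 change 0.35, SE 0.06, limma adjusted p = 0.00389). For Herpud1 and Edem1 the call itself depended on the scaling between libraries. After rescaling every library to the same total, Herpud1 stood at a log2 change of 0.20 (limma adjusted p = 0.0664) and Edem1 at 0.02 (limma adjusted p = 0.855), while the median of all genes moved to -0.29. Under that scaling 7 of the 10 genes were called higher, against 11.1% of all tested genes, and 50.7% of all tested genes were lower. With quantile normalization (22.1% of all tested genes higher, 25.0% lower) and with cyclic loess (23.7% higher, 23.0% lower) 8 of the 10 were called higher, all but Herpud1 and Pou2af1. Set against the median of all genes, the changes of Herpud1 and Edem1 were 0.53 and 0.34 as deposited, 0.49 and 0.31 with equal totals, 0.17 and 0.23 after quantile normalization, and 0.13 and 0.21 after cyclic loess scaling.

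**Figure D2:**
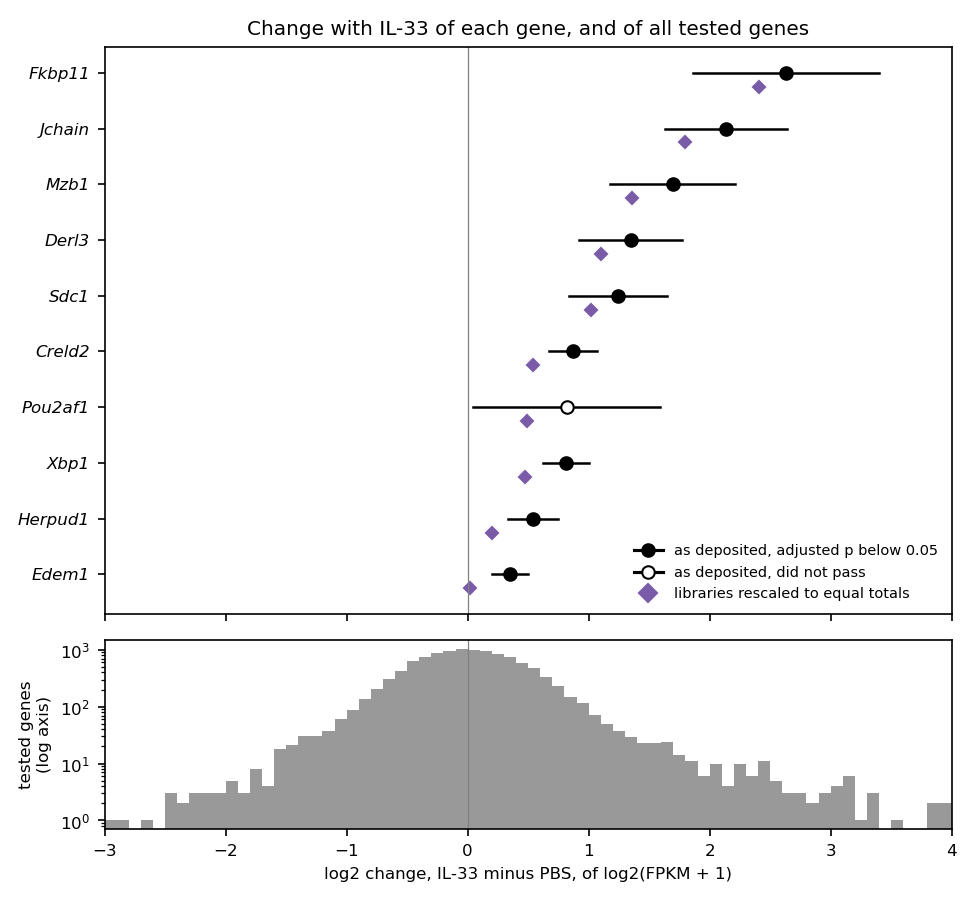
Log2 change (IL-33 minus PBS) of each gene as deposited (circles, filled where called) with its 95% limma interval, and with libraries rescaled to equal totals (diamonds), above a histogram of the changes of all tested genes on a log count axis; 21 genes below -3 or above 4 are not drawn. Fkbp11 at 2.63 and Jchain at 2.14 lie in the right tail of all genes, and Edem1 at 0.35 lies within its body, with its diamond at 0.02.

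The promoters of these genes were searched for the short sequences through which the unfolded protein response is known to act, since Xbp1, Creld2, Herpud1, Edem1 and Derl3 were all called higher. RefSeq start sites on GRCm38.p6, the assembly also called mm10, gave 10 promoters for 9 of the genes, each from 250 bases before to 50 after the start. The ER stress response element, spelled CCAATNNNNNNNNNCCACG and searched on both strands, was found in Derl3 and Creld2, and in 0.119% of the 32851 promoters of the table. The ER stress response element II, which is ATTGG and CCACG with a single base N between them, was found in Herpud1 and in 0.0365% of all promoters. TGACGTG, the core of the unfolded protein response element bound by XBP1, was found upstream of Pou2af1 and at the first bases of a second start of Fkbp11, and in 2.01% of all promoters. The octamer ATGCAAAT, to which Pou2af1 is recruited, was found in none of the 10 promoters and in 1.74% of all. No match overlapped another. The 100 bases around each upstream match are given below 5′ to 3′ on the plus strand, which is the strand of all 4 genes, because these are the genes with a match before the start; the Fkbp11 match lies after its second start and is not shown. Capitals mark the match, which in Derl3 and Creld2 reads as the reverse complement of the spelled element. The windows are chr10:75893201-75893300 for Derl3, chr15:88819479-88819578 for Creld2, chr8:94386329-94386428 for Herpud1 and chr9:51213582-51213681 for Pou2af1, and none held an annotated exon.
Derl3: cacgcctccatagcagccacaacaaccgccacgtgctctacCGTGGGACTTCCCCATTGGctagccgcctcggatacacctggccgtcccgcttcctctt
Creld2: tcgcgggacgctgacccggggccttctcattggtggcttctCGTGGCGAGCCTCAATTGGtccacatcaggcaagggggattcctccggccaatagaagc
Herpud1: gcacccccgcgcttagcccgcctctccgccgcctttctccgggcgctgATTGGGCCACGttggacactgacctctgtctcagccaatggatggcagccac
Pou2af1: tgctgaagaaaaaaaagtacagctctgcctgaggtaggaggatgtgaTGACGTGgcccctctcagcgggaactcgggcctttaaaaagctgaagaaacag

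A match describes the letters only. In Derl3 it lay at -156 to -138 relative to the start, in Creld2 at -126 to -108, in Herpud1 at -52 to -42 and in Pou2af1 at -61 to -55. The 2 genes with the full 19-base element differed in their change, at 1.35 for Derl3 and 0.87 for Creld2, and the genes with no match of any kind included Jchain at 2.14 and Xbp1 at 0.81.

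The order of levels among the 10 genes, on the FPKM scale that divides by transcript length, was the same in all 3 IL-33 libraries. It ran from Herpud1 through Jchain, Xbp1, Mzb1, Creld2, Edem1, Pou2af1, Fkbp11 and Derl3 to Sdc1, and no neighbours in it overlapped between libraries. In PBS libraries the mean levels ran Herpud1, Xbp1, Jchain, Edem1, Mzb1, Creld2, Pou2af1, Derl3, Sdc1 and Fkbp11, and the order differed between libraries. Neighbours whose PBS libraries did not overlap were Herpud1 and Xbp1, Jchain and Edem1, and Pou2af1 and Derl3, while the other 6 pairs of neighbours overlapped. Jchain stood above Xbp1 in PBS replicate 1 and below it in PBS replicates 2 and 3, and Mzb1 ranked 4 in the first and 6 in the others. Fkbp11 ranked 8 of 10 in each IL-33 library and 9, 10 and 10 in PBS replicates 1, 2 and 3.

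Ratios within a library do not depend on scaling between libraries, and set the genes apart from each other. Creld2 stood at 0.424, 0.424 and 0.437 of Xbp1 in IL-33 libraries, against 0.398, 0.413 and 0.412 in PBS libraries, so that these 2 genes kept nearly the same proportion in all 6 libraries. Jchain over Xbp1 can be read from its inverse: Xbp1 was 0.717, 0.538 and 0.561 of Jchain in IL-33 libraries, against 0.992, 2.05 and 1.72 of Jchain in PBS libraries. Mzb1 was 0.499, 0.414 and 0.457 of Jchain in IL-33 libraries, against 0.632, 0.586 and 0.623 in PBS libraries, which places the IL-33 values lower without overlap. Sdc1 over Jchain and Derl3 over Jchain overlapped between the groups, with log2 differences of -0.28 and -0.30. Fkbp11 was the only one of the 9 other genes whose ratio to Jchain was higher with IL-33 (log2 difference 1.83), and its PBS ratios ranged from 0.0057 to 0.0357. In all, 27 ratios were compared by an exact permutation test (two-sided), in which 3 against 3 libraries cannot go below p = 0.1, so none could pass. The exact permutation p was 0.1 for the 23 ratios whose groups did not overlap (0.117 after adjustment over the 27). For ratios over Jchain and over Xbp1 the share of all tested genes without overlap is not given here. Jchain itself ranked 78 of 11518 tested genes in change, so most genes changed by less and a lower ratio to Jchain is not particular to these genes.

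B cells are the precursors of plasma cells and were a measurable component of these sorted cells. Of 18 B cell markers 1 was higher, 3 were lower and 14 did not pass (median log2 change -0.34). With equal totals none was higher and 6 were lower (median -0.64). Over all tested genes 28.0% were higher and 25.5% lower, and 11.1% and 50.7% with equal totals. The shares of lower markers were thus not above those of all tested genes. The summed FPKM of the 18 was 838, 745 and 638 in IL-33 libraries, against 1321, 776 and 597 in PBS libraries, and the groups overlapped. All 18 were above 1 FPKM in every PBS library, so none was at 0. Cd22, an inhibitory B cell lectin, was lower by 0.92 (SE 0.20) and Cr2, the complement receptor CD21, by 1.16 (SE 0.27), and Fcer2a by 1.33 (SE 0.38, a call lost without IL-33 replicate 3). Blnk, an adaptor of the B cell receptor that other leukocytes also use, was higher by 0.74 (SE 0.17), with no call under equal totals (0.41). The count of lower markers was 8 without PBS replicate 3 and that of higher markers was 3 without PBS replicate 1.

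Within the PBS group, 6 of the 10 genes were highest in the library with the highest B cell marker sum. The share of all tested genes highest in that library is not given here, and a relation to B cell content was not tested. Derl3, whose PBS ratio to the summed B cell markers was the steadiest of the 10 genes, was 0.00592, 0.00827 and 0.00830 of that sum in IL-33 libraries. In PBS libraries it was 0.00178, 0.00179 and 0.00175 of the sum. Jchain was 0.211, 0.287 and 0.328 of that sum in IL-33 libraries, against 0.0492, 0.0469 and 0.0624 in PBS libraries. The IL-33 values of both genes were thus more than 3 times every PBS value. Other genes of the 10 were less steady against the sum in PBS libraries. Fkbp11 was 0.00176, 0.000763 and 0.000355 of it, Xbp1 0.0488, 0.0963 and 0.107, and Herpud1 0.133, 0.278 and 0.330. Pou2af1, whose level overlapped between the groups, was 0.0437, 0.0482 and 0.0490 of the B cell marker sum in IL-33 libraries, against 0.0259, 0.0229 and 0.0191 in PBS libraries, without overlap. Relative to the sum, 9 of the 10 genes had no overlap and were higher with IL-33, against 15.3% of all tested genes, and Edem1 overlapped (log2 difference 0.57, exact permutation p = 0.2). The sum is not a measure of B cell number. Spib in it is also on the list of plasmacytoid dendritic cell markers used here. Of the other genes in it, Cd22, Cr2 and Fcer2a were lower with IL-33 and Blnk was higher. Without PBS replicate 1 the log2 difference in the ratio to the sum was 2.32 for Jchain and 2.07 for Derl3, against 2.37 and 2.06 with it.

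**Figure D3:**
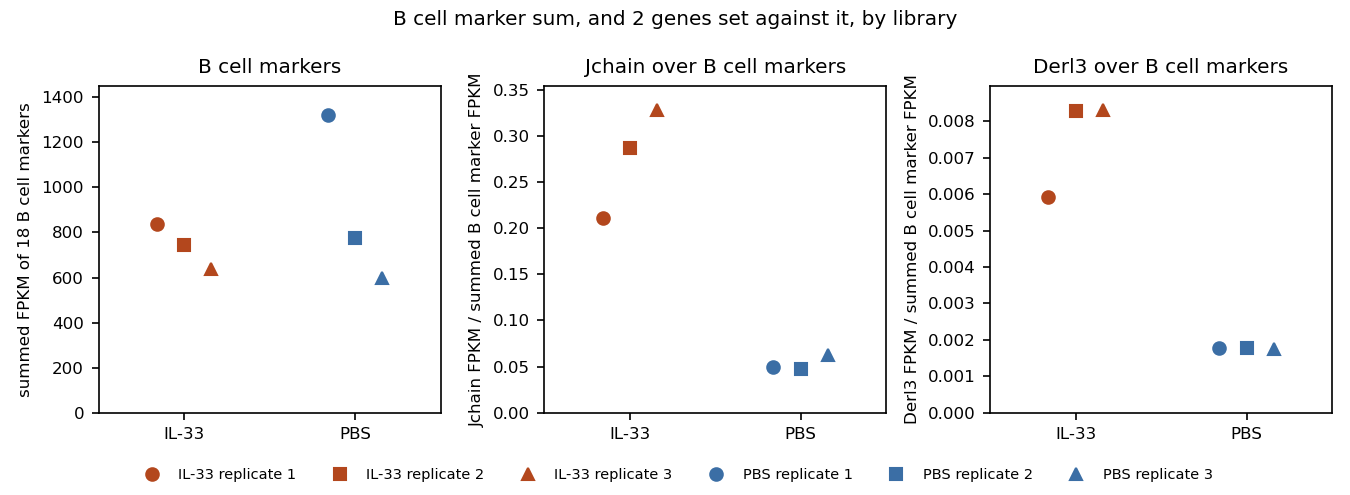
Summed FPKM of 18 B cell markers by library (left), and the FPKM of Jchain (middle) and Derl3 (right) divided by that sum, with IL-33 libraries at the left of each panel. The marker sum is highest in PBS replicate 1 at 1321 and overlaps between groups, whereas both ratios are higher in all IL-33 libraries, from 0.211 for Jchain and from 0.00592 for Derl3.

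Leaving out PBS replicate 1 had to enlarge the changes of the 6 genes that were highest there, so only the size of the shift is informative. Jchain then changed by 2.40 (SE 0.10), Mzb1 by 1.98 (SE 0.08), Fkbp11 by 3.05 (SE 0.13), Derl3 by 1.55 (SE 0.13) and Sdc1 by 1.38 (SE 0.17), and all 10 genes were called, against 24.0% of all tested genes. The changes of Xbp1 (0.78), Creld2 (0.82), Edem1 (0.36) and Herpud1 (0.46) moved by less than 0.1.

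Plasmacytoid dendritic cells also express Mzb1 and Xbp1. Of 14 markers of these cells 11 fell and none rose (median log2 change -0.73), against 25.5% lower and 28.0% higher of all tested genes. Siglech, their sialic acid-binding lectin, was at 12.6, 11.5 and 13.1 FPKM in IL-33 libraries, against 59.2, 57.6 and 36.5 FPKM in PBS libraries (log2 change -1.93, SE 0.18, limma adjusted p = 0.000388). Runx2 fell by 1.61 (SE 0.12), Klk1 by 1.29 (SE 0.18) and Atp1b1 by 1.23 (SE 0.18). The summed FPKM of the list was 504 to 616 in IL-33 libraries and 596 to 883 in PBS libraries, and no marker was listed at 0 in any library. The summed FPKM of 12 eosinophil markers was 885 to 1271 in IL-33 libraries and 221 to 313 in PBS libraries, most of it from Ear2 (609 to 869 and 174 to 243 FPKM). That of 20 proliferation markers was 348 to 401 in IL-33 libraries and 208 to 339 in PBS libraries. Of the 20, 11 were higher, against 28.0% of all tested genes, and 9 did not pass. The part of these cell types in the result was not tested.

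Other genes of the plasma cell programme were mixed. Of 19 tested, 7 rose, 4 fell and 8 did not pass, with a median log2 change of 0.12. These counts lie near the shares of all tested genes, 28.0% higher and 25.5% lower. Tnfrsf17, the plasma cell survival receptor BCMA, was at 3.37, 2.35 and 1.91 FPKM in IL-33 libraries, against 0.677, 0.104 and 0.0928 FPKM in PBS libraries (log2 change 1.46, SE 0.22, limma adjusted p = 0.00179). As for Fkbp11, PBS replicate 1 was the highest PBS library, and Tnfrsf17 passed the filter through the IL-33 group. So did Bhlha15, another of the 7 that rose, named here after its values were seen. Fam46c (also called Tent5c), a poly(A) polymerase of plasma cells that other leukocytes also use, rose by 1.28 (SE 0.18). Cd27 and Itga4, which T and NK cells also express, fell by 1.72 (SE 0.22) and 0.93 (SE 0.13). Prdm1, which encodes the plasma cell regulator BLIMP-1 and is named here after its values were seen, was at 4.21, 5.74 and 4.86 FPKM in IL-33 libraries, against 3.24, 4.12 and 5.03 FPKM in PBS libraries. Its groups overlapped and it did not pass (log2 change 0.22, SE 0.15, limma adjusted p = 0.261). Equal totals left 4 of the 19 higher and 6 lower, against 11.1% and 50.7% of all tested genes.

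Counts over the wider secretory machinery depended on the scaling. Counts as deposited are read against the 28.0% of all tested genes that were higher and the 25.5% that were lower. With equal totals 11.1% of all tested genes were higher and 50.7% lower, and with quantile normalization 22.1% and 25.0%. Of 32 tested genes of protein translocation, signal peptide cleavage and N-glycosylation, 21 rose, 1 fell and 10 did not pass (median 0.31). Sec61b, a subunit of the translocation channel, was at 416, 382 and 349 FPKM in IL-33 libraries, against 187, 177 and 199 FPKM in PBS libraries (log2 change 1.02, SE 0.09, limma adjusted p = 0.000293). The translocon-associated genes Ssr4 and Ssr2 rose by 0.97 (SE 0.09) and 0.75 (SE 0.08), and Ddost of the oligosaccharyltransferase by 0.59 (SE 0.07). These 4 were called under every scaling, but the list was not: with equal totals 7 were higher and 11 lower (median -0.03), and with quantile normalization 9 were higher and 2 lower (median 0.08). Of 24 other ERAD genes 8 rose, a share near that of all tested genes, and 1 fell (median 0.17), with none higher and 9 lower under equal totals, and with 5 higher without IL-33 replicate 1, IL-33 replicate 2 or PBS replicate 1. Ubxn6, an adaptor of the p97 segregase, rose by 0.52 (SE 0.08), Aup1 by 0.40 (SE 0.06) and Derl2 by 0.37 (SE 0.07), and Edem3 fell by 0.43 (SE 0.09). The rises of these 3 were not called under equal totals, nor that of Aup1 under quantile normalization (0.12) or cyclic loess (0.07). Of 26 genes of traffic between ER and Golgi 9 rose, also near the share of all tested genes, and 2 fell (median 0.15), with 1 higher and 12 lower under equal totals, 4 higher without IL-33 replicate 1, and 5 higher without IL-33 replicate 2 or PBS replicate 1. Kdelr1, a receptor that returns ER proteins, rose by 0.60 (SE 0.06), Lman2 by 0.40 (SE 0.07) and Sec13 by 0.35 (SE 0.06), and Sec16a fell by 0.68 (SE 0.12). Of these rises, that of Kdelr1 was also called under equal totals (0.26), and that of Sec13 under no other scaling.

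The unfolded protein response is started by ER membrane sensors. Of 12 tested sensors and regulators 2 rose, 4 fell and 6 did not pass (median -0.05). Of all tested genes 28.0% were higher and 25.5% lower. With equal totals 8 of the 12 were lower, against 50.7% of all tested genes. Without IL-33 replicate 1 the counts were 1 higher and 2 lower, and without IL-33 replicate 2, PBS replicate 1 or PBS replicate 2 they were 1 higher and 3 lower. Ern1, which encodes the sensor IRE1 that splices Xbp1 mRNA, was at 6.09, 7.34 and 7.71 FPKM in IL-33 libraries, against 11.9, 9.43 and 9.07 FPKM in PBS libraries (log2 change -0.47, SE 0.12, limma adjusted p = 0.0165, a call lost without IL-33 replicate 1). The sensor gene Eif2ak3, which encodes PERK and is named after its values were seen, did not pass (log2 change -0.20, SE 0.10, limma adjusted p = 0.132). Atf6, a sensor gene also named after its values were seen, was lower (log2 change -0.26, SE 0.08, limma adjusted p = 0.0278). That call was lost without IL-33 replicate 1 or 2 or PBS replicate 1 or 2, and held under every scaling. Mbtps2, a protease that releases ATF6, fell by 0.41 (SE 0.09) and Nfe2l2 by 0.33 (SE 0.07). Rtcb, the ligase that rejoins cut Xbp1 mRNA, rose by 0.36 (SE 0.07), but was at 0.02 with equal totals and 0.06 with quantile normalization and cyclic loess.

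**Figure D4:**
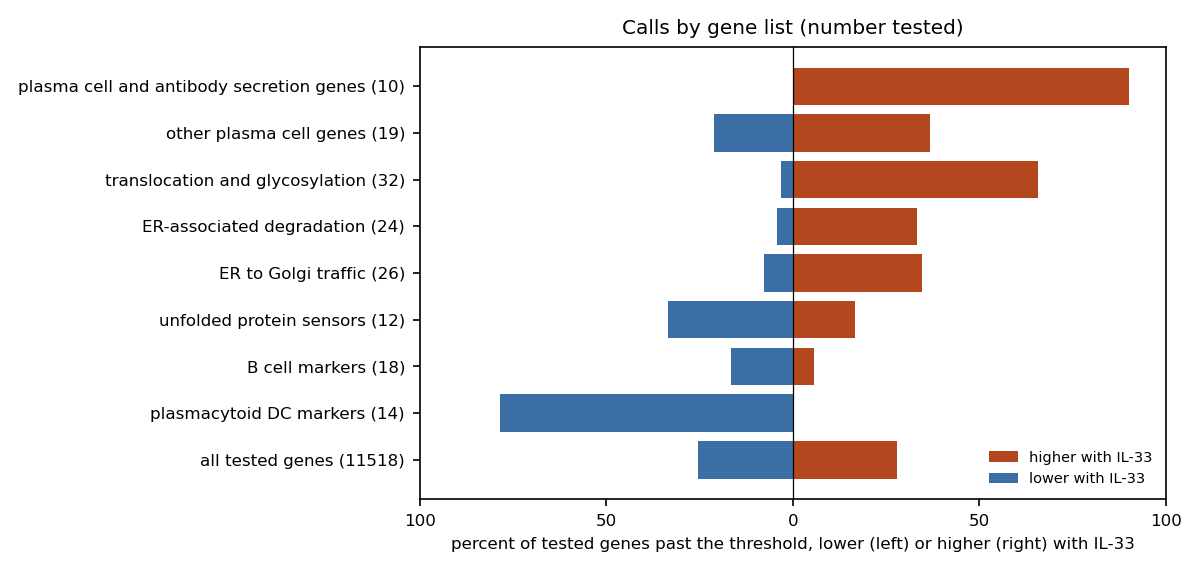
Percent of the tested genes of each list that were called higher (right) or lower (left) with IL-33, with all 11518 tested genes in the bottom row and the number tested in parentheses. The 10 plasma cell and antibody secretion genes are 9 higher and none lower, translocation and glycosylation genes 21 of 32 higher, and plasmacytoid dendritic cell markers 11 of 14 lower.

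The genes whose profile over the 6 libraries lay nearest to that of Jchain were Stac2, Mzb1, Flrt3, Slc52a3, Cysltr1 and Fgfr1. Likeness was measured as the root mean square distance between log2(FPKM + 1) profiles centred on their means, and ranged from 0.21 for Stac2 to 0.27 for Fgfr1. Stac2 was at 8.54, 8.72 and 6.57 FPKM in IL-33 libraries, against 1.39, 0.815 and 0.552 FPKM in PBS libraries. Among the 10 genes themselves, Mzb1 (rank 2), Fkbp11 (rank 16) and Derl3 (rank 50) lay near Jchain, and Herpud1 (rank 1499) and Edem1 (rank 2315) lay far from it. The distance weighs size as well as direction, so genes with a rise of similar size lie near Jchain. Stac2, Flrt3 and Slc52a3 passed the filter through the IL-33 group, and Flrt3 was under 1 FPKM in every PBS library.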

How the data were processed

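The authors deposited 1 table per library with gene symbols and FPKM values. The submitters' processing notes name Cuffnorm 2.2.1, build mm10, SAMtools 0.1.19, Bowtie2 2.2.3 and TopHat2 2.0.13. Which annotation, strand setting and Cuffnorm scaling were used is not given in the sources used here. Per the labels' protocols, a stranded mRNA kit was used on RNA cleared of DNA.

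Genes that reached 1 FPKM in 3 or more of the 6 libraries were tested as log2(FPKM + 1) with limma 3.58.1 in R 4.3.3, with a mean-dependent variance, no block and two-sided tests. The fit was tested on simulated data. Absolute depth is unknown, so no counting intervals are given. Lists were written from textbook knowledge: 6 of pathways, of which the immunoglobulin one matched no symbol, and markers of B cells, plasmacytoid and conventional dendritic cells, eosinophils, macrophages and proliferation. The 10 genes and the lists were chosen with earlier results of these data known. Named genes are the 10, up to 4 called genes with the smallest adjusted p per list described, and the 6 nearest profiles to Jchain; others are said to be named after their values were seen. Alternatives were other pseudocounts, filters, scalings and limma settings, library weights, a replicate block and leaving out each library. Replicate numbers were not treated as pairs. Positions come from GENCODE M21, promoters from RefSeq. Tables and figures were made with matplotlib 3.10.9, pandas 2.3.3 and numpy 2.4.6 in Python 3.11.15.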

Additional observations from a re-analysis of the deposited data

How the results depend on the processing

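Over 17 alternatives, the count of the 10 genes called higher lay between 7 and 10, and none was called lower in any. Of 168 changes of single genes recomputed, 161 kept their direction and side of the threshold and none reversed. With equal totals Edem1 (0.0176) and Herpud1 (0.199) were not called, and Herpud1 was also not called with quantile normalization (0.153) or cyclic loess (0.139); the cause was not tested. Pou2af1 was called with library weights (0.913), with the replicate block (0.817) and without PBS replicate 1 (1.22), and with 1 library left out its change ranged from 0.467 to 1.22. Equal totals gave 1280 genes higher and 5840 lower over all tested genes, where 3230 and 2939 were called as deposited. A filter of 5 FPKM left out Sdc1 and Derl3, which gave no value there. Same-numbered IL-33 and PBS libraries did not deviate together (correlations 0.075, -0.054 and 0.089 for replicates 1, 2 and 3), so the numbers were not taken as pairs, and the fit with the replicate block called all 10 genes, with 2806 genes higher over all tested and 4 of 24 ERAD and 5 of 26 traffic genes higher.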

Other observations

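Relatives of the 10 genes, listed after the data were seen, did not move as one. Of 16 paralogues and partners, 13 were tested: IL-33 libraries had 7 of them higher and 3 lower, and 3 did not pass (median log2 change 0.29). Of all tested genes 28.0% were higher and 25.5% lower. With equal totals 1 relative was higher and 4 were lower, against 11.1% and 50.7% of all tested genes. Without IL-33 replicate 1 or 2 the count of higher relatives was 4. Sdc4, a syndecan of many cell types, was at 28.5, 23.8 and 22.2 FPKM in IL-33 libraries, against 17.1, 14.6 and 11.05 FPKM in PBS libraries (log2 change 0.77, SE 0.16, limma adjusted p = 0.00579), and was called under every scaling. The octamer-binding partners of Pou2af1 were lower. Pou2f2, which encodes OCT2, was at 8.55, 13.3 and 10.95 FPKM in IL-33 libraries, against 32.3, 29.2 and 25.0 FPKM in PBS libraries (log2 change -1.33, SE 0.16, limma adjusted p = 0.00086), and Pou2f1, which encodes OCT1, fell by 0.77 (SE 0.15, limma adjusted p = 0.00467). Both were lower under every scaling and without any 1 library. Derl1 and Derl2 rose by 0.24 (SE 0.08) and 0.37 (SE 0.07) as deposited, and stood at -0.10 and 0.05 with equal totals, where neither was called; the call of Derl1 was also lost without IL-33 replicate 1 or 2 or PBS replicate 1 or 2.

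Of 20 proliferation markers, which plasmablasts share with all dividing cells, 11 rose with IL-33, none fell and 9 did not pass (median log2 change 0.50). The shares over all tested genes were 28.0% higher and 25.5% lower. Aurkb, a mitotic kinase, was at 18.4, 21.6 and 18.4 FPKM in IL-33 libraries, against 9.31, 6.65 and 11.5 FPKM in PBS libraries (log2 change 1.04, SE 0.17, limma adjusted p = 0.00261). Ccnb1 rose by 0.81 (SE 0.16), Ube2c by 0.91 (SE 0.21) and Birc5 by 0.99 (SE 0.24). The count moved with single libraries, to 15 without PBS replicate 3, which was the PBS library highest for all 4 of these genes, to 5 without IL-33 replicate 2, 6 without PBS replicate 1 or 2 and 7 without IL-33 replicate 3. With equal totals 4 were higher and 1 was lower, against 11.1% and 50.7% of all tested genes. Of the remaining marker lists, 9 of 11 tested eosinophil genes were higher and none was lower, but only 6 of the 12 listed reached 1 FPKM in all PBS libraries, and Epx, Ear1, Ear6, Alox15 and Cebpe passed the filter through the IL-33 group, so the count is given as a description. For macrophages, 3 of 14 genes were higher and none was lower, a count that was 0 without IL-33 replicate 3 or PBS replicate 1 or 2, 1 without IL-33 replicate 1 and 5 without PBS replicate 3 (with 1 lower without PBS replicate 1). With equal totals none of the macrophage genes was higher and 2 were lower.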
